A study of Mus musculus with 8 samples.

Results

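Pax7, the myogenic regulatory factors Myf5, Myod1, Myog and Myf6, and the fusion genes Mymk and Mymx were followed through 8 sections of embryonic mouse diaphragm. The 7 genes were chosen by symbol, and 6 of them were among the 19465 genes of the deposited tables. Myod1 is not analysed here. The sections were profiled on the 10X Genomics Visium FFPE platform, in which pairs of probes are hybridised to fixed tissue and counted per barcoded spot as unique molecular identifiers (UMIs). The question set by the design is how gene expression in diaphragm muscle differs between stages and when calcium signalling or β-catenin is removed.

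Of the 4 sections at E14.5, 3 were controls and 1 was CaV1.1 -/- (CaV1.1 KO). Of the 4 at E18.5, 2 were controls, 1 was CaV1.1 KO and 1 was bCat cKO. The CaV1.1 KO is the dysgenic mouse, which lacks the muscle calcium channel in every cell. In the bCat cKO both floxed β-catenin alleles are removed by a Cre recombinase under the human skeletal actin promoter, so the deletion is limited to the cells in which that promoter is active. Controls carried at least one working allele of each gene. The crosses described in the paper could also leave a mutant with an altered allele of the other gene, which the sample labels do not give. Each mutant group was a single section, so in every test its spread was taken to equal that of the controls.

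Skeletal muscle is built in steps that these genes mark. Pax7 labels muscle progenitors and later satellite cells. Myf5 and Myod1 commit progenitors to myoblasts, Myog drives their terminal differentiation, and Myf6 (also called Mrf4) acts in differentiating cells and in formed fibers. Mymk (myomaker) and Mymx (myomixer, or myomerger) are membrane proteins that together let myoblasts fuse into fibers.

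On GRCm38, Pax7 lies on chromosome 4 at 139737059 to 139833530, Myog on chromosome 1 at 134290004 to 134292548, Mymk on chromosome 2 at 27061636 to 27072161 and Mymx on chromosome 17 at 45600961 to 45602196. Myf5 (107482908 to 107486927) and Myf6 (107492848 to 107494723) are neighbours on chromosome 10, with 5920 bases between them. The bases upstream of the start of Myog and Myf5 are printed because both genes fell between the stages while the neighbour of Myf5 rose. Each sequence has 250 bases, was taken from RefSeq (GRCm38.p6), runs 5′ to 3′ on the strand of its gene and ends at the base before the start. It covers chr1:134289754-134290003 on the plus strand for Myog and chr10:107486135-107486384 on the minus strand for Myf5. The Myf5 window lies inside the Myf5 span given above, as the Pax7 window (chr4:139832969-139833218, minus strand) does in that of Pax7. The start used for these 2 windows is therefore not the upper end of the span, from which the 5920 bases were counted for Myf5. Capitals mark matches to the E-box CANNTG (the site of myogenic factors), to a MEF2-type motif (CTA, any 4 bases, TA and any base) and to the MEF3 motif TCAGGTT, searched on both strands.
Myog: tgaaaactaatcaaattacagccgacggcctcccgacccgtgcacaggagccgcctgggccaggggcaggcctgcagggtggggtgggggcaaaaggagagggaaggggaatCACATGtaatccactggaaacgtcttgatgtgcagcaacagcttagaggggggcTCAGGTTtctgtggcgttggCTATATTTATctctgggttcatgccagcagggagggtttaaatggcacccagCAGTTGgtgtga
Myf5: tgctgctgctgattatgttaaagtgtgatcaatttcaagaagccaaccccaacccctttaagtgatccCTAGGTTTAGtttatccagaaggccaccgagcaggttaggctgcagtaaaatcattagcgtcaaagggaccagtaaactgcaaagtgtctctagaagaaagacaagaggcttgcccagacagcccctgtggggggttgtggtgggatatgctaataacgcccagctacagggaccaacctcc

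The Myog window held 2 E-boxes, at -138 to -133 and at -12 to -7 from the start, 1 MEF2-type match at -64 to -55 and 1 MEF3 match at -84 to -78. The Myf5 window held 1 MEF2-type match and no E-box, and the window of Pax7 held none of the 3 motifs. Among 32851 RefSeq promoters cut to the same length, 66.2% held an E-box, 18.9% a MEF2-type match and 3.49% the MEF3 motif. These matches describe letters and were not tested as binding sites.

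Between 683 and 3460 spots with at least 1000 UMIs were kept per section, with 14170423 to 82850603 UMIs in all. Muscle spots were separated from other tissue by the summed signal of 9 contractile genes, which took 55.0% to 89.4% of the spots. Levels are given as CPM, the UMIs of a gene relative to all UMIs of the same spots, scaled by the TMM factors of edgeR unless called unscaled. A spot covers several cells, so fewer cells of a type and less RNA per cell cannot be told apart. In unscaled CPM of muscle spots, Cacna1s, the gene of CaV1.1, was 31.4 in the CaV1.1 KO at E18.5 against 61.2 and 63.9 in controls. At E14.5 it was 16.2 in the CaV1.1 KO against 18.3 to 22.8. Ctnnb1 was 81.5 in the section labelled bCat cKO against 75.9 and 71.2, so it was not lower there, and where its probes lie in the gene is not given in the sources used here.

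All 6 genes were higher in muscle spots than in other spots of each control section, in unscaled CPM. The ratio of muscle to other spots across the 5 controls ran from 1.98 to 3.98 for Myf5, from 2.05 to 3.11 for Pax7, from 2.11 to 3.31 for Myog, from 2.57 to 3.85 for Mymk, from 2.33 to 3.5 for Mymx and from 3.21 to 5.78 for Myf6. In the section labelled bCat cKO, Mymx stood at 61.8 CPM in muscle spots and 67.3 CPM in other spots, a ratio of 0.918. The ratios of Pax7 (1.30) and Myog (1.63) there were also below the range of the controls, and Pax7 in spots at least 200 µm away from muscle stood at 77.8% of its level in muscle spots. In the CaV1.1 KO at E18.5 the ratio was 1.32 for Mymx and 1.48 for Myog, both below the range of the controls. Myf6 kept a ratio of 4.12 there and 7.77 in the section labelled bCat cKO. Muscle spots were set within each section by contractile genes. They made up 61.1% of spots in the E18.5 CaV1.1 KO and 73.1% in the bCat cKO, against 89.4% and 87.1% in the E18.5 controls. Whether muscle with low contractile signal fell among the other spots was not tested.

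Shares of spots with a UMI were compared at matched depth. After every spot was thinned to 5000 UMIs and shallower spots were left out, Pax7 was found in 19.2% to 23.2% of muscle spots in E14.5 controls and in 8.29% and 8.90% in E18.5 controls. The shares without thinning were 54.8% to 80.0% and 33.1% and 39.7%. In spots at least 200 µm away from muscle the thinned share of Pax7 was 1.60% to 5.41% at E14.5 and 4% and 1.71% at E18.5. Myog was found in 95.6% to 98.1% of thinned muscle spots at E14.5 and in 65.5% and 66.5% at E18.5, against 49.3% to 69.3% and 33.6% and 18.7% far from muscle. Thinning left out 14 to 47 muscle spots per E14.5 control and 5 and 32 in the E18.5 controls.

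Control muscle at E18.5 held less of the progenitor, differentiation and fusion transcripts than at E14.5, with the exception of Myf6 and Mymk. Of the 6 genes, 4 fell and 2 rose, beside 65.6% of all 14832 genes tested that passed at an adjusted p of 0.05 (33.2% higher and 32.3% lower). The test was edgeR's quasi-likelihood test on the summed UMIs of the muscle spots, with Benjamini-Hochberg adjustment over all genes.

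Pax7 stood at 41.4, 40.1 and 42.1 CPM in the E14.5 controls and at 24.6 and 26.2 CPM in the E18.5 controls. The groups did not overlap, and the log2 fold change was -0.70 (SE 0.083, edgeR adjusted p = 0.000180). Myf5 was 43.3, 39.1 and 43.5 CPM at E14.5 and 22.1 and 30.8 CPM at E18.5, a log2 fold change of -0.67 (SE 0.144, edgeR adjusted p = 0.00423). The progenitor marker and the first commitment factor therefore fell by similar factors, to 0.616 and 0.630 of their E14.5 levels. Changes of this size were common, since 47.1% of all genes tested changed at least as much as Pax7 in either direction and 48.9% as Myf5. The same shares were 28.2% for Myog, 12.8% for Mymx, 10.6% for Myf6 and 56.0% for Mymk.

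Myog fell further. It stood at 796, 614 and 689 CPM at E14.5 and at 315 and 318 CPM at E18.5, a log2 fold change of -1.15 (SE 0.134, edgeR adjusted p = 0.000165). Mymx fell most among the 6 genes, from 193, 132 and 157 CPM to 45.2 and 42.4 CPM. Its log2 fold change was -1.87 (SE 0.161, edgeR adjusted p = 3.34e-05), which left 0.273 of the E14.5 level.

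Myf6 went the other way, from 119, 87.6 and 105 CPM to 411.5 and 455.5 CPM, 4.17-fold higher (log2 2.06, SE 0.137, edgeR adjusted p = 9.80e-06). All sections of the later stage lay above all sections of the earlier one. Unscaled this held too, with a smaller rise, from 137, 107 and 130 CPM to 299 and 333 CPM. The neighbouring genes Myf5 and Myf6 thus moved in opposite directions in the same spots.

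Mymk, the fusion partner of Mymx, was 117, 71.6 and 80.3 CPM at E14.5 and 134 and 129 CPM at E18.5 (log2 0.55, SE 0.188, edgeR adjusted p = 0.0318). This rise rested on the scaling. Unscaled, Mymk was 134, 87.4 and 99.6 CPM at E14.5 and 97.4 and 94.2 CPM at E18.5, so that the groups overlapped, and with library sizes set to total UMIs, an alternative chosen after seeing the data, the log2 fold change was -0.16 (edgeR adjusted p = 0.401). The adjusted p rose to between 0.0675 and 0.107 when any one control other than E14.5 replicate 1 was left out. The 9 contractile genes took 21642 to 27362 CPM of muscle spots at E14.5 and 128417 and 131917 CPM at E18.5, unscaled. Scaled to those genes, the median of all genes moved by -3.19 on the log2 scale, and Myf6 (-1.10) and Mymk (-2.59) turned negative. Subtracting that median gives 2.09 and 0.60, but this step largely undoes the scaling. It returns values near those of TMM by construction and adds no support for a rise.

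**Figure D1:**
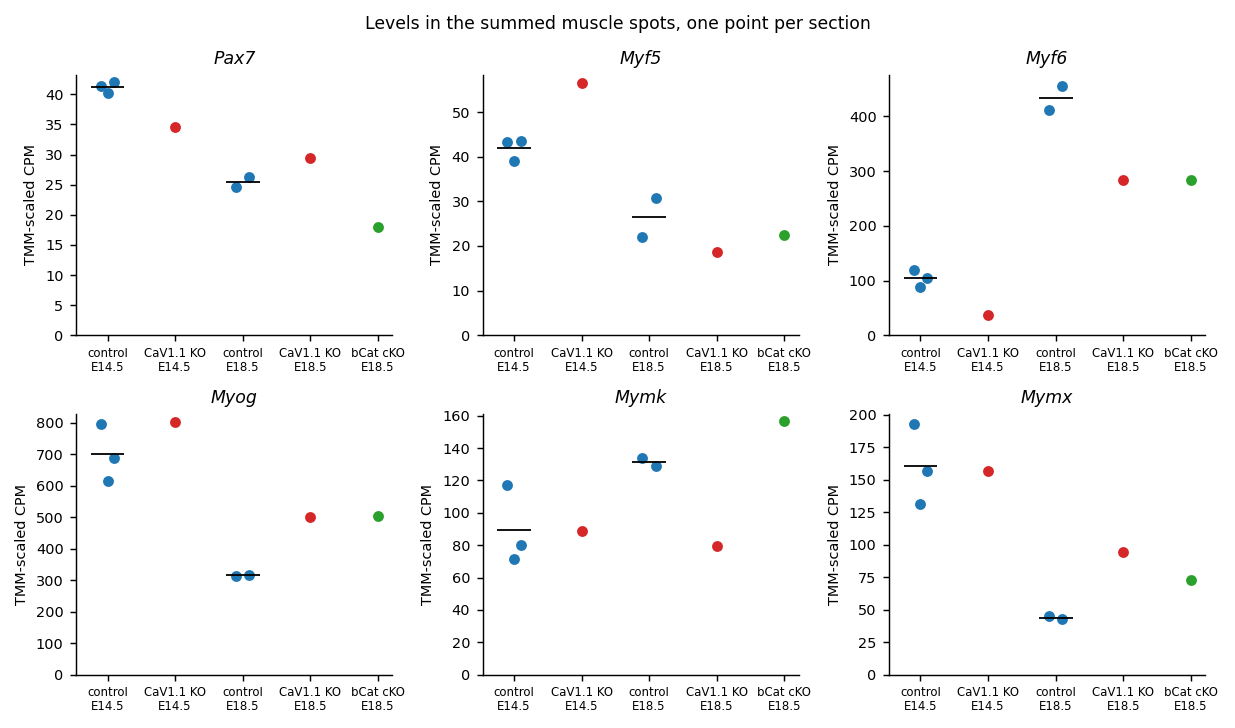
Levels of the 6 genes in the summed muscle spots, in TMM-scaled CPM on the vertical axes, with 1 point per section, groups on the horizontal axes and bars at the mean of groups with more than 1 section. Myog and Mymx are lower in both E18.5 controls than in any E14.5 control, and Myf6 in the E14.5 CaV1.1 KO lies at 37.5, below the 3 controls.

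The genes around these factors were read from fixed lists and described by counts. Of 12 proliferation genes tested, 11 fell and 1 rose between the stages, with a median log2 fold change of -1.74 beside -0.01 over all genes. Bub1 (-2.32), Mcm5 (-2.11) and Top2a (-2.04), which act in mitosis and DNA replication, fell most, and Ccnd1, the cyclin of the G1 phase, rose by 0.99 on the log2 scale. Of 22 upstream and progenitor genes, 7 rose and 8 fell, among them Sdc4 (2.04), Six4 (1.52) and Calcr (1.47), which mark satellite cells or act upstream of the factors, and Six2 (-1.65), Tenm4 (-1.62) and Fgfr4 (-1.19). Of 11 partner genes, 6 rose and 4 fell. Kat2b (1.52) and Mef2d (1.26) rose, and the E protein genes Tcf3 (-1.02), Tcf12 (-0.50) and Tcf4 (-0.33), whose products pair with the myogenic factors, fell.

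Among 19 repressors of myogenic factors, 8 rose and 4 fell. Bhlhe41 (3.03) and Bhlhe40 (2.98), which encode bHLH repressors, rose most, while Msc (-1.80), which encodes musculin, and Mdfi (-1.19), which encodes an inhibitor that binds the factors, fell. Of 25 accessory fusion genes, 10 rose and 8 fell, with Arhgap10 (1.58) and Cav3 (1.51) at the top and Cdh2 (-2.10), Myof (-1.62) and Jam3 (-1.39) at the bottom. Of 13 Notch genes, 3 rose and 4 fell. Of 7 genes of cell cycle exit, 2 rose (Cdkn2d, 1.63, and Cdkn1b, 1.12) and 3 fell.

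At E14.5 the CaV1.1 KO differed from the controls in 1 of the 6 genes, beside 2.08% of all genes (0.533% higher and 1.54% lower). Myf6 stood at 37.5 CPM in the CaV1.1 KO against 119, 87.6 and 105 CPM in the controls. It was thus the lowest of the 4 sections, at 0.361 of the control level (log2 -1.47, SE 0.195, edgeR adjusted p = 0.0162). Without E14.5 control replicate 3 the log2 value stayed at -1.47, but its edgeR adjusted p was 0.0739. That control was the only one at its stage made with the later Space Ranger version. In the same section Myog was 804 CPM, Mymx 157 CPM and Mymk 88.95 CPM. Mymx and Mymk lay within the range of the controls and Myog just above it, and none passed the test (edgeR adjusted p = 0.598 for Myog, 0.958 for Mymx and 0.993 for Mymk).

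Pax7 was 34.6 CPM and Myf5 56.5 CPM in the CaV1.1 KO at E14.5, below and above all 3 controls, and neither passed the test (edgeR adjusted p = 0.294 and 0.278). Their log2 values were -0.25 (SE 0.105) and 0.43 (SE 0.175). None of the genes in the lists of partners, repressors, cell cycle exit and proliferation passed in either direction. Calcr (-1.38), the integrin gene Itga7 (-1.21) and Meox2 (-0.74) were lower among the 22 upstream and progenitor genes, of which 4 fell. Of 25 accessory fusion genes 3 fell, which were Nfatc2 (-1.64), Arhgap26 (-1.06) and Elmo1 (-0.67), and of 13 Notch genes 1 fell, Jag1 (-0.78).

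Unscaled, the 9 muscle genes summed to 16235 CPM in the muscle spots of the CaV1.1 KO, against 21642 to 27362 CPM in the controls. The 4 macrophage markers, none of them at 0, summed to 195 CPM against 102 to 114 CPM. The part of either in the Myf6 difference was not tested.

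At E18.5 Myog and Mymx were higher in the CaV1.1 KO. Of the 6 genes 2 rose and none fell, beside 10.6% of all genes higher, 15.2% lower and 25.7% in either direction. Mymx was 94.5 CPM in the CaV1.1 KO against 45.2 and 42.4 CPM in the controls, 2.16-fold higher (log2 1.11, SE 0.199, edgeR adjusted p = 0.00773). Myog was 499.5 CPM against 315 and 318 CPM, 1.58-fold higher (log2 0.66, SE 0.170, edgeR adjusted p = 0.0273). Both lay above both controls and below the E14.5 controls.

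Myog was called in 8 of the 13 settings run, this one included. The call was lost without E14.5 control replicate 3, without E18.5 control replicate 1 or 2, over all tissue spots and with a replicate block (edgeR adjusted p = 0.0621, 0.0739, 0.0644, 0.0517 and 0.102). Mymx passed in each of the 13 (highest adjusted p = 0.0305). Myf6 was 283.5 CPM against 411.5 and 455.5 CPM, and its edgeR adjusted p of 0.05 lay just above the threshold before rounding (log2 -0.61, SE 0.189). Mymk was 79.8 CPM against 134 and 129 CPM (log2 -0.72, SE 0.265, edgeR adjusted p = 0.0839). Over the 13 settings Myf6 was called in 7 and Mymk in 6, among them lower with DESeq2 (adjusted p = 0.00472 and 0.0194) and, with muscle scaling, higher. With library sizes set to total UMIs the values of Myf6 and Mymk were -0.07 and -0.18, and Pax7, at 0.21 with TMM (edgeR adjusted p = 0.192), was 0.75 (edgeR adjusted p = 0.00196).

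Among the listed genes, 4 of 12 proliferation genes rose and none fell, including Mcm2 (0.81), Mcm5 (0.66) and Aurkb (0.61). Of 13 Notch genes, Dll1 (0.87) and Megf10 (0.66) rose and Dll4 (-0.91) fell. Of 11 partners 3 fell, which were Mef2d (-0.90), Smyd1 (-0.78) and Kat2b (-0.63). Of 19 repressors, 4 rose and 5 fell. Of 25 accessory fusion genes, 4 rose, led by the adhesion receptor genes Adgrb1 (1.94) and Adgrb3 (1.60), and 4 fell, led by Cav3 (-1.27). Of 22 upstream and progenitor genes, 3 rose (Tenm4, 0.82, Eya1, 0.67, and Fgfr4, 0.59) and 6 fell, with Calcr at -1.18.

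The contractile genes summed to 71384 CPM in the muscle spots of this section against 128417 and 131917 CPM, unscaled. The 4 Schwann cell markers, none at 0, summed to 128 CPM against 20.5 and 24.5 CPM, and the 4 macrophage markers, none at 0, to 347 CPM against 96.5 and 129.7 CPM. Their part in the differences was not tested. The change between the stages in the CaV1.1 KO was also tested against that in the controls. By edgeR none of the 6 genes passed, beside 6.40% of all genes (2.22% higher and 4.18% lower), while 4 had an unadjusted p under 0.05 and DESeq2 called 3. The nearest was Mymx, with a difference of 1.14 on the log2 scale (SE 0.281, edgeR adjusted p = 0.0553).

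**Figure D2:**
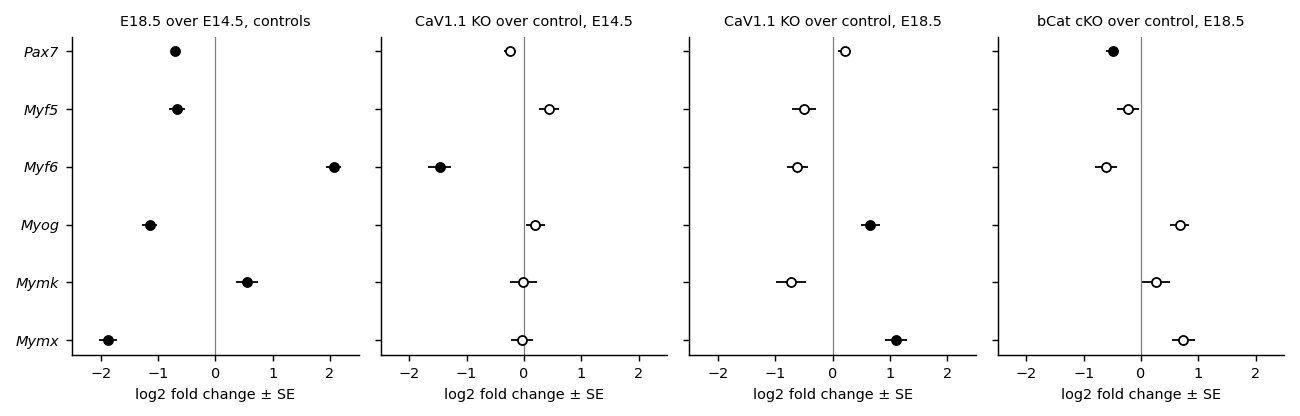
Log2 fold changes of the 6 genes in muscle spots with their standard errors on the horizontal axes, for the stage and for each mutant. Filled points passed the edgeR test at an adjusted p of 0.05, as did Mymx at 1.11 in the E18.5 CaV1.1 KO and Myf6 at -1.47 in the E14.5 CaV1.1 KO.

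In the section labelled bCat cKO 1 of the 6 genes passed, beside 8.80% of all genes (3.18% higher and 5.62% lower). Pax7 was 18.03 CPM against 24.6 and 26.2 CPM in the controls, 0.710 of their level (log2 -0.49, SE 0.112, edgeR adjusted p = 0.0384). Over 13 settings, this one included, it was called in 5, and the call was lost without E14.5 control replicate 2 or 3 or E18.5 control replicate 2 (edgeR adjusted p = 0.0720, 0.0818 and 0.0882). Myog was 503.5 CPM against 315 and 318 CPM and Mymx 72.9 CPM against 45.2 and 42.4 CPM. Both were above both controls and missed the threshold (log2 0.67 and 0.73, edgeR adjusted p = 0.0510 and 0.0623). DESeq2 called both, and it called Myf6 lower, which edgeR put at -0.62 (SE 0.189, adjusted p = 0.0883).

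Myf6 was 282.8 CPM in this section against 411.5 and 455.5 CPM, and 283.5 CPM in the CaV1.1 KO. Unscaled it was 239.5 CPM here and 300.1 CPM in the CaV1.1 KO, against 298.7 and 333.2 CPM in the controls. The CaV1.1 KO thus lay between the controls on that scale. Mymk was 157 CPM against 134 and 129 CPM and Myf5 22.5 CPM against 22.1 and 30.8 CPM, and neither passed (edgeR adjusted p = 0.576 and 0.501). Both E18.5 mutants were compared with the same 2 controls. Of the listed genes, none of 25 accessory fusion genes passed, and among 19 repressors Bhlhe40 (-0.77), Msc (-0.75) and Hdac9 (-0.74) fell. Of 12 proliferation genes Mcm5 rose (0.58) and Ccnd1 fell (-0.89). Of 22 upstream and progenitor genes Calcr (-1.29) and Six4 (-1.17) fell, and of 13 Notch genes Dll4 (-0.88), Jag1 (-0.57) and Notch3 (-0.49). The 9 muscle genes summed to 105199 CPM unscaled, below both controls, and the 4 markers of macrophages, none at 0, to 213 CPM, above both. Their part in these values was not tested.

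**Figure D3:**
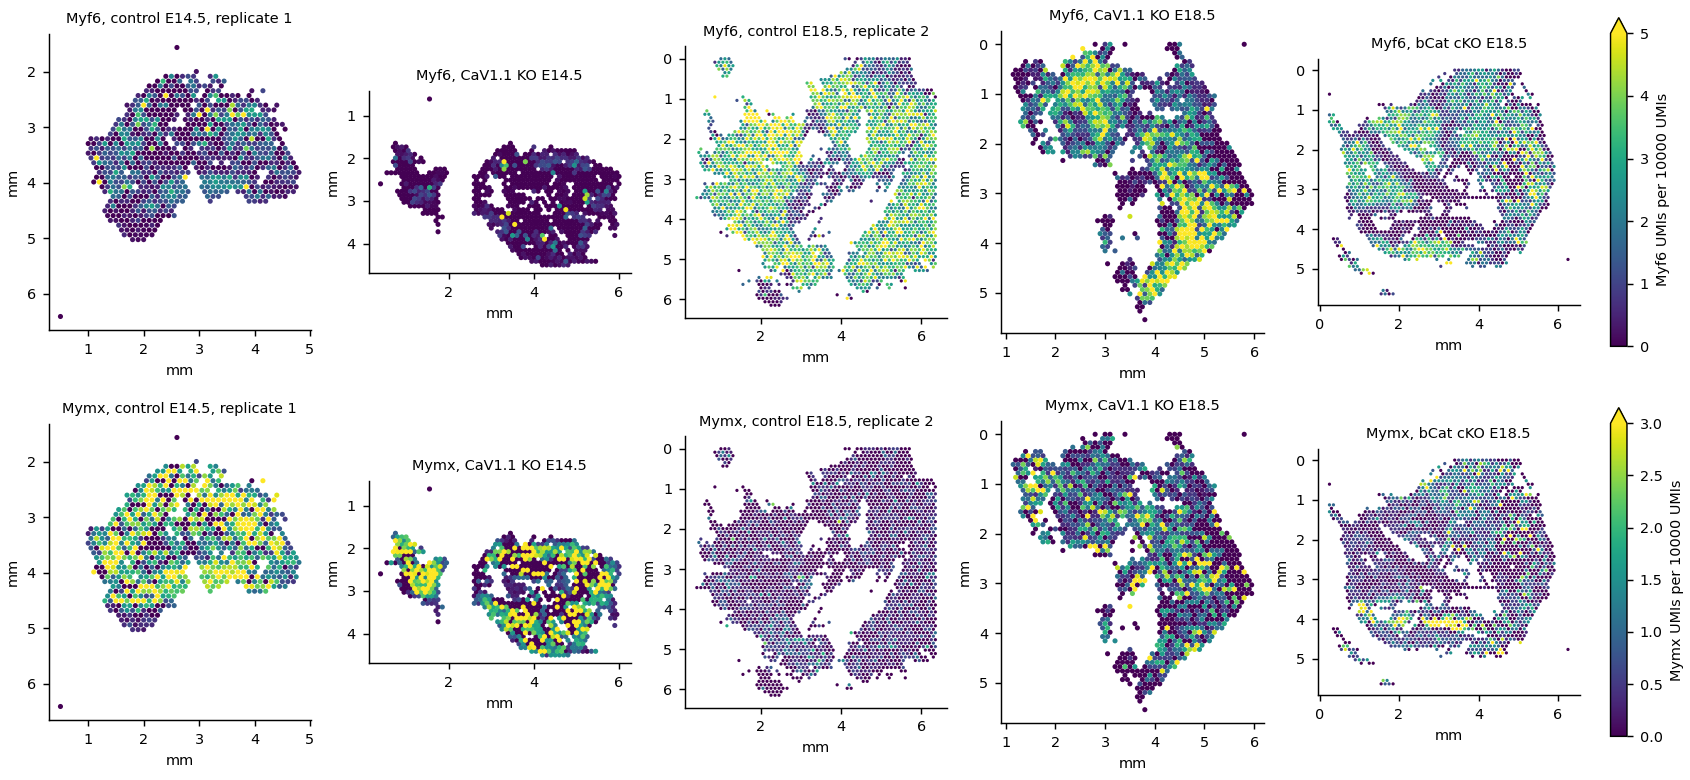
Spots of 5 sections in their array positions in mm, coloured by Myf6 (upper row) or Mymx (lower row) UMIs per 10000 UMIs of the spot, with colours ending at 5 and 3. Myf6 fills the muscle of the E18.5 control and is sparse in the E14.5 CaV1.1 KO, while Mymx is sparse in the E18.5 control and present in both E18.5 mutants.

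Within the muscle, spots were split by genes of the fiber ends and of the synapse. The center took the top 15% of muscle spots by a score of 8 neuromuscular junction genes, and the periphery the top 15% by a score of 4 myotendinous junction genes. Neither list held any of the 6 genes. In the E14.5 controls 4 of the 6 genes were higher in the center and none lower, beside 11.7% of all genes higher, 8.62% lower and 20.4% in either direction. In the E18.5 controls all 6 were higher, beside 11.7% higher, 9.12% lower and 20.8% in either direction. The test was edgeR's quasi-likelihood test on the summed regions of all sections, with the section as a block.

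Myf6 had the steepest gradient at E14.5. Its center held 171.5, 136 and 137.5 CPM and its periphery 55.5, 46.8 and 79.6 CPM in the 3 controls, 2.56-fold more in the center (log2 1.36, SE 0.093, edgeR adjusted p = 7.21e-13). At E18.5 the center held 397 and 447 CPM and the periphery 301 and 309.5 CPM, 1.38-fold more (log2 0.46, SE 0.065, edgeR adjusted p = 1.73e-06). The intermediate spots, which are all muscle spots in neither group, held 451 and 502 CPM, more than either group. Unscaled they held 311 and 349 CPM against 305 and 338 CPM in the center, with overlapping 95% intervals, so this excess over the center rested on the scaling. The gradient of Myf6 was thus smaller at E18.5, by 0.89 on the log2 scale (SE 0.115, edgeR adjusted p = 1.75e-06), beside 8.12% of all genes (3.53% higher and 4.59% lower).

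Mymx kept its gradient. It was 1.81-fold higher in the center at E14.5 (log2 0.85, SE 0.067, edgeR adjusted p = 1.80e-11) and 1.79-fold higher at E18.5 (log2 0.84, SE 0.099, edgeR adjusted p = 5.43e-08), although its level had fallen. The center held 249.6, 196 and 206 CPM at E14.5 and 60.3 and 52.0 CPM at E18.5. The difference between the stages was -0.01 (SE 0.123, edgeR adjusted p = 0.984).

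Myf5 was higher in the center by 0.82 (SE 0.099) at E14.5 and by 0.74 (SE 0.112) at E18.5 on the log2 scale. Its center to periphery ratio was above 1 in each of the 8 sections, as were those of Myf6 and Mymx. Myog was higher by 0.63 (SE 0.049) at E14.5 and by 0.30 (SE 0.059) at E18.5, and this gradient too was smaller at E18.5, by 0.33 (SE 0.077, edgeR adjusted p = 0.00458). Pax7 passed at E18.5 (log2 0.36, SE 0.103, edgeR adjusted p = 0.0106) and not at E14.5 (0.22, SE 0.098, adjusted p = 0.112). Mymk likewise passed at E18.5 (0.29, SE 0.067, edgeR adjusted p = 0.00146) and not at E14.5 (0.13, SE 0.076, adjusted p = 0.248). For these genes the difference between the stages did not pass (edgeR adjusted p = 0.675 and 0.414).

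The 6 markers of fibroblasts and tendon, none at 0, summed to 4203 to 5037 CPM in the center and 7434 to 8471 CPM in the periphery of E14.5 controls, unscaled. At E18.5 they summed to 4231 and 5709 CPM in the center and 8803 and 12332 CPM in the periphery. Their part in the gradients was not tested. The 9 muscle genes summed to 118497 and 126101 CPM in the center and 114862 and 115083 CPM in the periphery at E18.5. Scaled to those 9 genes, Myf5 (0.57), Myf6 (0.30) and Mymx (0.69) still passed at E18.5, while Pax7, Myog and Mymk did not. Without E18.5 control replicate 2 the calls of these 3 were lost as well, and without replicate 1 that of Pax7 (edgeR adjusted p = 0.0640).

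In the section labelled bCat cKO the gradient of Myog was steeper than in the controls. Its center held 701 CPM and its periphery 382 CPM, a ratio of 1.83, against ratios of 1.15 and 1.33 in the 2 controls. The difference of the gradients was 0.58 on the log2 scale (SE 0.101, edgeR adjusted p = 0.00125), beside 1.24% of all genes (0.629% higher and 0.607% lower). It passed in each of the 11 settings with the section block, with an adjusted p of 0.0493 without E18.5 control replicate 1. The other 5 genes did not pass. In the CaV1.1 KO at E18.5 none of the 6 gradients passed edgeR's test against the controls, beside 0.593% of all genes (0.205% higher and 0.388% lower). DESeq2 called none either, and 3 had an unadjusted p under 0.05. The center to periphery ratio of Myog was 0.935 in that section and that of Mymk 0.796. The paper reports that genes of the center score change in these mutants. It describes Chrna1, Chrng, Etv5 and Ache as altered in level in the bCat cKO. In the E18.5 CaV1.1 KO it describes Chrna1 and Musk as spread beyond the center. Whether the center spots were the same part of the muscle in mutants and controls was not tested.

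**Figure D4:**
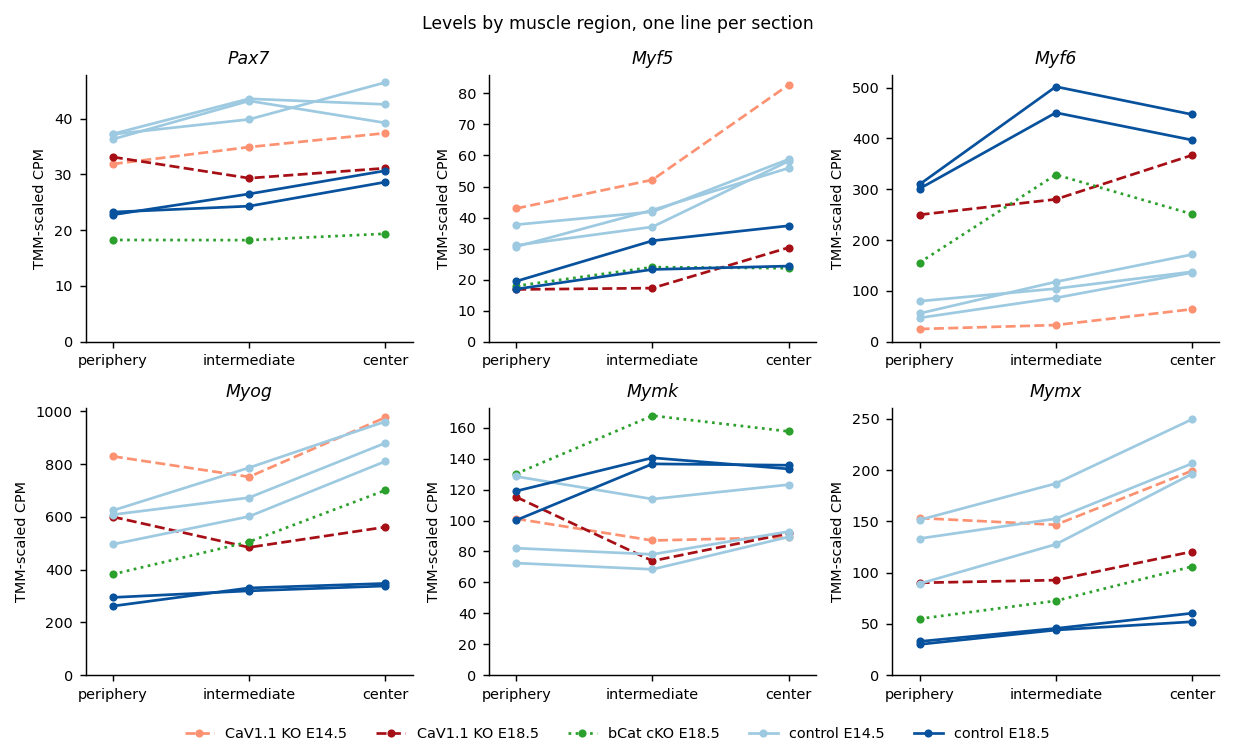
TMM-scaled CPM (vertical axes) of the 6 genes in the periphery, intermediate and center spots, with 1 line per section and groups by colour. Myf6 rises from periphery to center in the E14.5 controls. On this scale it is highest in the intermediate spots (those in neither group) in the E18.5 controls, at 451 and 502 CPM. Unscaled, the 95% intervals of those spots and the center overlapped.

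Depth inside the muscle was measured as the distance to the nearest kept spot over tissue that was not muscle. Spots without tissue did not count, so muscle at a bare border of the section could fall inside. The median distance was 361 µm in E14.5 control replicate 3, which had 102 other spots. It was 173 µm in replicates 1 and 2, which had 264 and 271. Spots at 200 µm or more (inside) were compared with spots at up to 100 µm (edge). All 6 genes were higher inside at both stages, beside 12.7% of all genes higher at E14.5 and 22.4% at E18.5 (8.16% and 17.2% lower, 20.9% and 39.6% in either direction). Myf6 rose most, by 1.08 (SE 0.072) at E14.5 and 0.91 (SE 0.072) at E18.5 on the log2 scale. In the E14.5 controls it was 78.5, 56.6 and 46.4 CPM at the edge and 158, 115 and 119.9 CPM inside. The other 5 rose by 0.35 to 0.58 at E14.5 and by 0.51 to 0.75 at E18.5.

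Edge spots share their area with other tissue, and the 9 muscle genes were higher inside as well. Scaled to those genes, the median of all genes moved by -0.42 at E14.5 and -0.75 at E18.5. Only Myf6 still passed as higher inside at E14.5 (0.64), while Myf5, Myog and Mymx stayed positive without passing. At E18.5 Myog passed as lower (-0.26). Subtracting these medians gives 0.33 to 1.06 at E14.5 and 0.48 to 0.89 at E18.5 for the 6 genes, but largely undoes the scaling. That step cannot show whether the genes rose inside beyond the muscle genes. In unscaled CPM, Myf6 went from 90.1, 69.4 and 59.3 CPM at up to 100 µm to 149, 108 and 116 CPM at 100 to 200 µm and 178, 133 and 143 CPM at 200 to 300 µm in the E14.5 controls. Pax7 went from 41.7, 44.3 and 36.8 CPM at up to 100 µm to 48.2, 53.7 and 63.6 CPM at 200 to 300 µm.

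**Figure D5:**
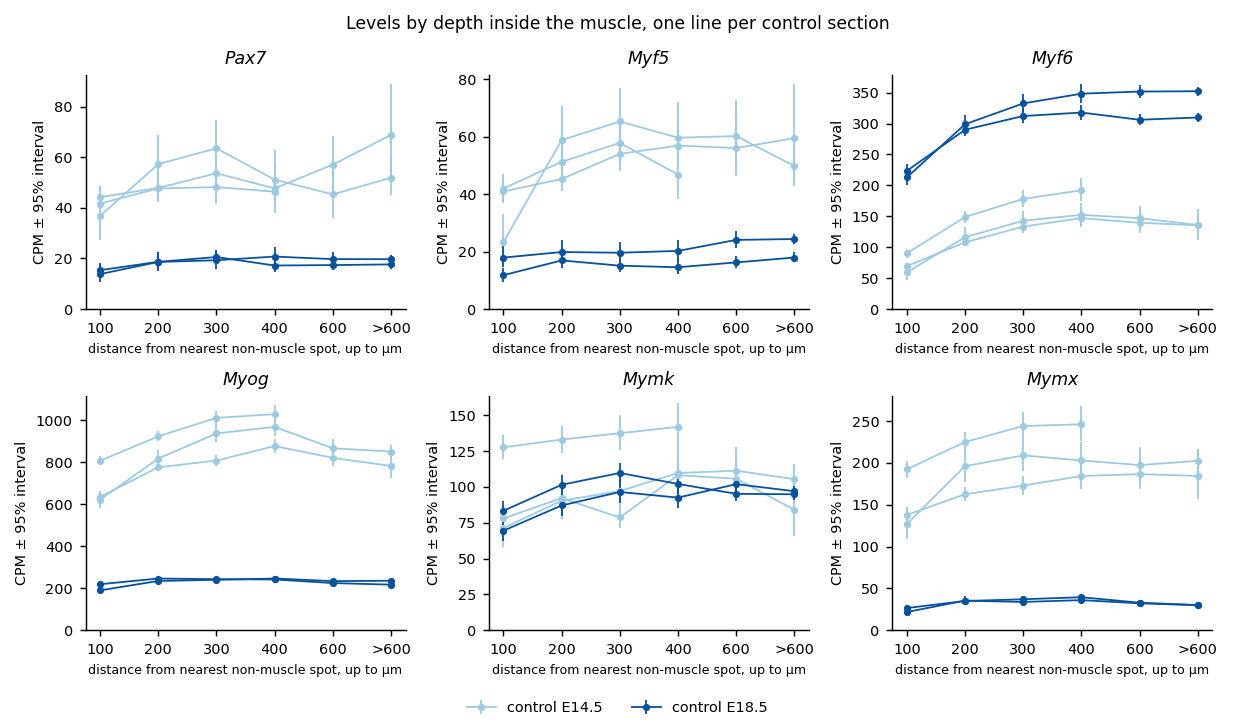
Unscaled CPM of the 6 genes (vertical axes) with exact Poisson 95% intervals and 1 line per control section. The horizontal axes give the distance in µm from the nearest tissue spot that was not muscle. Each line is lowest or near its lowest in the first 100 µm, and the E18.5 controls lie above the E14.5 controls for Myf6 and below them for Pax7, Myf5, Myog and Mymx.

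Across the 24 region sums, which share sections and differ in depth and stage, Myog and Mymx had the most similar patterns of the 6 genes (Pearson r = 0.985 of unscaled log2 CPM). Each was the gene most like the other among 7815 genes with at least 20 unscaled CPM on average. Next for Myog came Arpp21 (0.984) and Mtr (0.982), and for Mymx Megf10 (0.981) and Kif24 (0.980). Pax7 was most like Klhdc8b (0.962), Zswim6 (0.961) and Hdac11 (0.959), and Myf5 most like Sertad2 (0.955), Pitx3 (0.954) and Psmb2 (0.954). Myf6 was most like Ryr3 (0.974), Arhgap36 (0.968) and Sntb1 (0.959). Mymk had no such neighbour, its highest values being 0.653 for Samd8, 0.635 for Smarcd3 and 0.629 for Gatm. Its r with Mymx was 0.339. From spot to spot within the 5 control sections, which differ in depth, the median r was highest for Myog with Mymx, at 0.21 (range 0.17 to 0.40). In E14.5 control replicate 3 that pair stood at 0.208, below Myf5 with Myog at 0.222. The range of r was 0.03 to 0.38 for Myog with Myf6 (median 0.17) and 0.02 to 0.09 for Pax7 with Myf5 (median 0.05).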

How the data were processed

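The deposited values are raw UMI counts of each gene in each spot, which the authors made with Space Ranger (2.0.0 for E14.5 controls 1 and 2 and the E14.5 CaV1.1 KO, 2.0.1 for the others, per the file headers) on mm10. Spots with at least 1000 UMIs were kept. Muscle spots lay above Otsu's threshold of the mean score of 9 muscle genes in their section. UMIs were summed per section and region and tested in R 4.3.3 with edgeR 4.0.16 (filterByExpr, TMM, quasi-likelihood test, Benjamini-Hochberg adjusted p under 0.05 over all genes), in 1 fit of all groups. Fits of regions were blocked by section, because regions were paired within sections. Scripts were tested on simulated data. The p-values of whole muscle measure the spread between these sections. Those of regions, with the section block, measure the spread of region differences across sections, with differences in level between sections taken out. Intervals cover counting error only.

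DESeq2 1.42.0, other scalings, filters, regions and left-out controls were alternatives, of which scaling to total UMIs and use of only sections of the later Space Ranger version were chosen after seeing the data. The members and lists were chosen with earlier results of these data known. All members were named in each comparison, and of each list up to 3 called genes a direction with the largest change. Comparisons of parts of the diaphragm muscle along its anatomy are not reported here.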

Additional observations from a re-analysis of the deposited data

Results flagged for a closer look

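The gradient of Myf6 from periphery to center differed between the stages in controls, by -0.89 on the log2 scale (E18.5 against E14.5, SE 0.115, edgeR adjusted p = 1.75e-06), with section ratios of 3.09, 2.91 and 1.73 at E14.5 and 1.32 and 1.44 at E18.5. That of Myog differed by -0.33 (SE 0.077, edgeR adjusted p = 0.00458), with ratios of 1.54, 1.64 and 1.45 at E14.5 and 1.15 and 1.33 at E18.5. Neither passed without the section block.

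The gradient of Myog also differed between the section labelled bCat cKO and the E18.5 controls, by 0.58 (SE 0.101, edgeR adjusted p = 0.00125), with a ratio of 1.83 against 1.15 and 1.33. This rests on 1 mutant section and did not pass without the section block. Whether the center of that section was the same part of the muscle as in controls was not tested.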

How the results depend on the processing

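Of the 6 genes, the number called changed by over 1.5 times in these settings, and the cause was not tested. For the E14.5 CaV1.1 KO (1 called) it was 5 scaled to the 9 muscle genes, 0 with a replicate block and 0 to 1 with 1 control left out. For the E18.5 CaV1.1 KO (2) it was 4 with DESeq2, 6 with muscle scaling, 4 with no filter, 1 with the replicate block, 4 in sections of the later Space Ranger version and 1 to 4 with 1 control left out. For the bCat cKO (1) it was 4, 3, 4, 0 and 2 in the same settings, 2 scaled to total UMIs and 0 to 4 with 1 control left out. For the stage change of the KO against controls (0) it was 3 with DESeq2, 4 with muscle scaling, 2 with no filter, 1 over all tissue spots, 4 with total UMIs and 0 to 2 with 1 control left out. For center against periphery at E18.5 (6) it was 3 with muscle scaling, 2 without the section block and 3 to 6 with 1 control left out. Between the stages (2) it was 0 without the block and 1 to 2 with 1 control left out. For the KO gradient (0) it was 2 with no filter, 1 with regions of 10% and 0 to 1 with 1 control left out, and for the bCat cKO gradient (1) 0 without the block. Inside against edge (6 at both stages) gave 1 and 1 with muscle scaling and 1 and 3 without the block.

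Of values called in either setting, 15 changed sign with muscle scaling. They were Myf6 (-1.10) and Mymk (-2.59) for the stage, Mymk (0.58) and Mymx (0.55) in the E14.5 CaV1.1 KO, Myf5 (0.91), Myf6 (0.79) and Mymk (0.68) in the E18.5 CaV1.1 KO, and Pax7 (0.031) in the bCat cKO. Inside against edge they were Pax7 (-0.025) and Mymk (-0.083) at E14.5, and Pax7 (-0.079), Myf5 (-0.020), Myog (-0.26), Mymk (-0.086) and Mymx (-0.0069) at E18.5. With total UMIs Mymk (-0.16) changed sign for the stage. Muscle scaling moved the median of all genes by -3.19 for the stage, 0.56 and 1.40 for the CaV1.1 KO at E14.5 and E18.5 and 0.52 for the bCat cKO. It took the share of calls that were higher from 50.7% to 1.47%, from 25.6% to 96.8%, from 41.1% to 99.2% and from 36.1% to 94.0% in that order.

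Over all single-gene values in the alternatives, 656 kept their direction and side of the threshold, 56 gained a call, 46 lost one and 16 called values changed sign. A further 24 values, not called in either setting, changed sign, 6 of them with muscle scaling and 18 in other settings. Replicate numbers were shared between the stages. Deviations of same-numbered controls from their stage means had r = -0.184 and -0.271 over 7807 genes. With 2 controls at E18.5 the deviations mirror each other, so this cannot tell whether the numbers pair the sections. With the replicate block the number of all genes called fell from 308 to 0 for the E14.5 CaV1.1 KO, from 1305 to 81 for the bCat cKO and from 949 to 0 for the stage change of the KO. Each mutant group has 1 section, which limits what any of its values can show.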
